A study of Mus musculus with 2 samples.

Results

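A group of 10 genes of transforming growth factor beta (TGF-beta) and activin signalling was followed in skin keratinocytes of K14-caSmad1 and wild-type mice. They are the ligand genes Tgfb1 and Tgfb2, the receptor genes Tgfbr1, Tgfbr2 and Tgfbr3, the latent-complex genes Ltbp1 and Ltbp3, the activin subunit genes Inhba and Inhbb, and the matrix gene Tgfbi. They were found as the gene spots of both arrays whose gene name in the scanner files was one of these names. All 10 genes were found, with 16 probes on 25 spots, out of 27975 gene names on the array. Ltbp1, Ltbp3 and Tgfbi encode matrix proteins tied to the pathway and are neither ligands, receptors nor activin subunits.

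TGF-beta is secreted in a latent complex that LTBP proteins anchor to the matrix. Freed ligand binds the type II receptor, which activates the type I receptor and, through it, Smad2 and Smad3. Activins are dimers of the inhibin beta subunits and signal through receptors of their own to the same Smads, whereas bone morphogenetic proteins (BMPs) use Smad1 and its close relatives. In epidermis TGF-beta is known for restraining keratinocyte growth, and in the hair follicle for its part in regression of the follicle. Activin is known for its roles in wound repair and follicle formation.

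The samples were RNA of primary epidermal keratinocytes from K14-caSmad1 mice, transgenic FVB/NJ animals overexpressing a constitutively active Smad1, and from wild-type FVB/NJ mice, all at day 20 after birth. The keratin 14 promoter named in the transgene is active in basal keratinocytes. RNA went through 1 round of amplification and was hybridised on 2 two-colour Agilent arrays on 1 slide, which the labels call biological replicates 1 and 2. K14-caSmad1 RNA was always in Cy5 and wild-type RNA always in Cy3, so the dye and the genotype cannot be told apart, and the labels do not say how many animals or of which sex gave each RNA.

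Gene spots well above background numbered 14412 and 15800 in the K14-caSmad1 channel on replicates 1 and 2, against 15570 and 16144 in the wild-type channel. Replicate 1 minus replicate 2, the log2 ratio of 12297 single-spot probes measured in both dyes had a standard deviation (SD) of 0.0946, where spots of repeated probes within an array predicted 0.106. For the means of 92 repeated probes it was 0.0523, where spot noise predicted 0.0336. The arrays thus differed by no more than spot noise in the first comparison and by more in the second. The labels call the arrays biological replicates but do not say whether the RNAs came from separate animals. The limma p-values below therefore measure only the spread between these arrays, which may be technical. By that measure 87.1% of 11748 genes tested were called, 40.8% higher and 46.3% lower in K14-caSmad1, so a call by limma alone says little. A 2-fold or larger change that both arrays shared was found for 13.9% of genes, 4.09% higher and 9.81% lower (480 and 1153 genes). With median centring in place of loess the split was 1110 higher and 811 lower, and from the deposited values it was 1258 and 1882. Of 13 keratinocyte markers 12 were well above background in both channels, among them Krt5 and Krt14. So were 14 of 18 markers of the hair shaft, matrix and inner root sheath, whose summed level in wild type was above that of the keratinocyte markers (values below).

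Probes of 60 bases were the unit of measurement, and 5 genes had several probes, none of them with more than 1 above background in both channels. An upstream probe of each of 4 genes with several probes and the single probes of Tgfb1 and Inhba are shown first, because they bear on which values could be measured. Each is printed whole in lower case, 5′ to 3′, with its mm9 position and strand in the sentences that follow. None of their bases is singled out.
Tgfb1: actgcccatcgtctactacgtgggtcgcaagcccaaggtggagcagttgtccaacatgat
Inhba: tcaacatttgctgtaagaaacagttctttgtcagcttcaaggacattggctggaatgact
Inhbb: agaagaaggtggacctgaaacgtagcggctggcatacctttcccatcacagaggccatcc
Ltbp3: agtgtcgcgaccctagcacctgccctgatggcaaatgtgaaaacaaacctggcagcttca
Tgfbr1: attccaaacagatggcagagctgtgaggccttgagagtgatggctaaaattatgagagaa
Tgfbr2: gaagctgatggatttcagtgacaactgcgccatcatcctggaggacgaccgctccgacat
The Tgfb1 probe lies at chr7:26489877-26489936 on the plus strand, and the Inhba probe at chr13:16118634-16118693 on the plus strand. The upstream Inhbb probe lies at chr1:121314417-121314476 on the minus strand. The upstream Ltbp3 probe lies at chr19:5751763-5751822 on the plus strand. The upstream Tgfbr1 probe was placed at chr4:47419898-47423556 on the plus strand, a stretch longer than the probe. The upstream Tgfbr2 probe printed here lies at chr9:116019196-116019255 on the minus strand. It is upstream of the measured Tgfbr2 probe, while the remaining Tgfbr2 probe, made to a cDNA clone, lies farther upstream on the chromosome. Of these 6, the scanner software marked the Inhba probe as well above background in both channels and the Ltbp3 probe in wild type only, while the other 4 were well above background in neither channel.

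Of the 10 genes 7 could be measured, and they moved in opposite directions. In K14-caSmad1 keratinocytes Tgfbi, Tgfbr1 and Tgfbr2 were higher, by 2.10, 1.95 and 1.72-fold, and Tgfb2 was higher by 1.12-fold. Inhbb and Ltbp3 were lower, by 2.62 and 2.25-fold, and Inhba was lower by 1.27-fold. All 7 passed limma's threshold, against 87.1% of all genes tested, with 4 higher (40.8% of all genes) and 3 lower (46.3%). Tgfbi, Ltbp3 and Inhbb differed at least 2-fold on both arrays, 3 of the 7 against 13.9% of all genes tested, with 1 higher (4.09% of all genes) and 2 lower (9.81%). The 7 passed the detection filter in both channels on both arrays, so none entered through the genotype in which it was brighter. Tgfb1, Tgfbr3 and Ltbp1 were well above background in neither channel and were not tested. In RNA of a whole cell preparation, fewer cells of a type and less RNA per cell cannot be told apart.

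**Figure D1:**
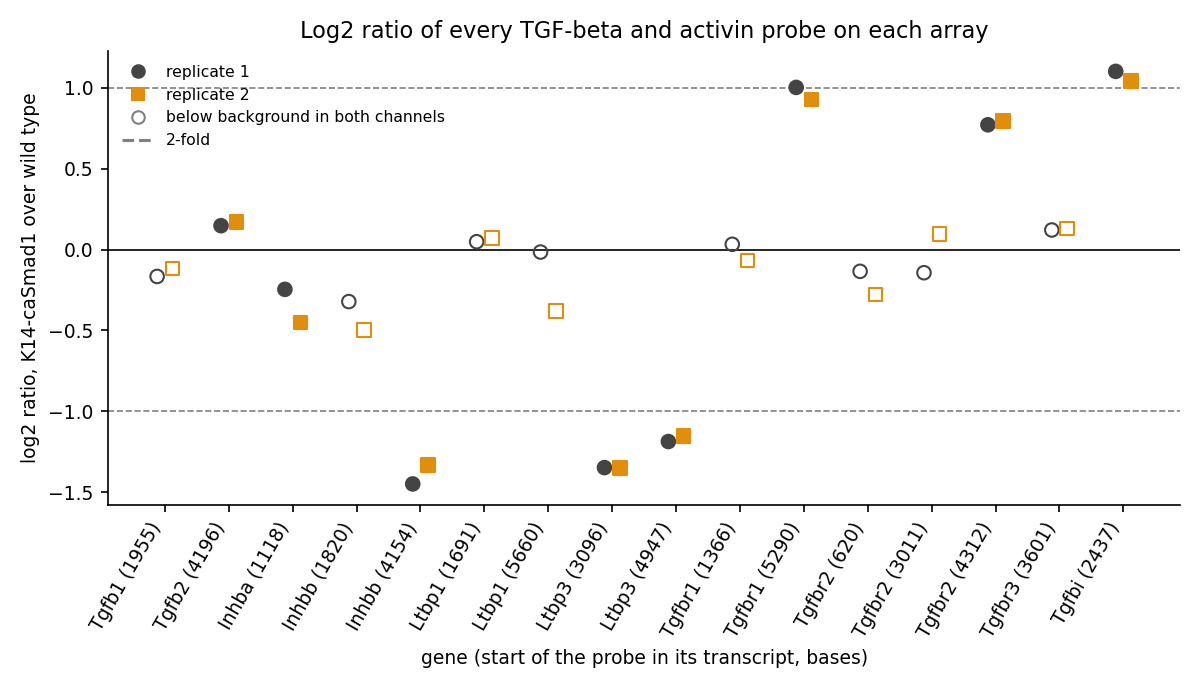
Log2 ratio of K14-caSmad1 over wild type (vertical axis) for each of the 16 probes on replicate 1 (circles) and replicate 2 (squares), with the start of the probe in its transcript in brackets. Open symbols are probes well above background in neither channel and lie between -0.50 and 0.13. On both arrays the filled symbols of Inhbb and Ltbp3 lie beyond the dashed 2-fold line below and Tgfbi beyond that above. Tgfbr1 reaches the upper line on replicate 1 (1.00) but not on replicate 2 (0.93). The upstream Ltbp3 probe is filled though it was well above background in wild type only.

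The TGF-beta ligand genes gave little signal. Tgfb1, the ligand gene most widely expressed in tissues, was spotted 10 times on each array. In the K14-caSmad1 channel its spots read from 921 to 1074 (median 1012) on replicate 1 and from 984 to 1083 (median 1024) on replicate 2, in units of mean intensity. In the wild-type channel they read from 334 to 369 (median 353) and from 334 to 365 (median 351). The 153 negative control spots averaged 1070 ± 52.7 and 1074 ± 34.4 in the K14-caSmad1 channel and 340 ± 11.1 and 343 ± 10.8 in the wild-type channel (SD over spots). In each channel the Tgfb1 spots thus lay within or below the range of the negative controls, and 0 of 10 spots were well above background in any channel. The log2 ratio of the spots averaged -0.17 ± 0.10 (SD over 9 spots) on replicate 1 and -0.12 ± 0.09 (SD over 10 spots) on replicate 2, but at this signal it measures background and not Tgfb1. A difference in Tgfb1 was therefore not detectable here.

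Tgfb2, the other TGF-beta ligand gene followed, had normalized log2 intensities of 9.26 and 9.03 in K14-caSmad1 keratinocytes on replicates 1 and 2, against 9.12 and 8.86 in wild-type keratinocytes. K14-caSmad1 was the higher on each array, but the values of the genotypes overlapped when the arrays were pooled. The log2 ratio was 0.15 and 0.17 on replicates 1 and 2 (limma adjusted p = 0.00567), at a probe on chr1:188447534-188447593, minus strand. The raw signal was 1.48 and 1.37 times the mean of the negative controls in K14-caSmad1, against 1.37 and 1.26 times in wild type. The scanner software gave this difference single-spot p-values of 0.286 and 0.126, and with all spots in the background fit its limma adjusted p was 0.816.

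The activin subunit genes were both lower. Inhbb, which encodes the subunit of activin B, had normalized log2 intensities of 9.92 and 9.95 in K14-caSmad1 keratinocytes, against 11.36 and 11.28 in wild-type keratinocytes. The genotypes did not overlap, and the log2 ratio was -1.45 on replicate 1 and -1.33 on replicate 2 (limma adjusted p = 6.54e-05). Of all genes tested, 6.07% had a lower ratio. With every spot in the background fit it was -0.98, short of 2-fold. That probe, at chr1:121312083-121312142 on the minus strand, starts at base 4154 of the transcript. The upstream probe printed above starts at base 1820, 2334 bases away on both the transcript and the chromosome, and was not well above background in either channel (log2 ratio -0.32 and -0.50).

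Inhba, the subunit gene of activin A, had normalized log2 intensities of 9.16 and 8.80 in K14-caSmad1 keratinocytes, against 9.41 and 9.25 in wild-type keratinocytes. Both K14-caSmad1 values lay below both wild-type values, by less than the 2 K14-caSmad1 values differed from each other. The log2 ratio was -0.25 on replicate 1 and -0.45 on replicate 2 (limma adjusted p = 0.0073), and of the measured members it differed most between the arrays. Its raw signal was 1.40 and 1.25 times the negative controls in K14-caSmad1, against 1.58 and 1.51 times in wild type. With median centring in place of loess the call was lost (log2 ratio -0.14, limma adjusted p = 0.153), as it was with all spots in the background fit (-0.25, adjusted p = 0.465).

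Of the latent-complex genes, Ltbp3 was lower and Ltbp1 was not measured. LTBP3 holds latent TGF-beta in the matrix and aids its secretion. Ltbp3 had normalized log2 intensities of 11.16 and 11.15 in K14-caSmad1 keratinocytes, against 12.35 and 12.30 in wild-type keratinocytes, with no overlap and a log2 ratio of -1.19 and -1.15 (limma adjusted p = 4.62e-05). This probe, at chr19:5758289-5758346 on the plus strand, starts at base 4947. The upstream probe, starting at base 3096, gave -1.35 on each array, but it was not well above background in K14-caSmad1. As a bound it was at least 1.03-fold lower there, from the wild-type mean over the lowest K14-caSmad1 signal well above background. All such bounds compare dyes and are open to dye bias without a swap. The brighter probe fell short of 2-fold with median centring (log2 ratio -0.86) and with every spot in the background fit (-0.98), and it read -1.01 without background subtraction, where 1 of the 2 lower members passed. The Ltbp1 probes start at bases 1691 and 5660, at chr17:75624653-75624712 and chr17:75790058-75790191 on the plus strand. Their raw signals were from 0.813 to 1.13 times the negative controls in K14-caSmad1, against 0.858 to 1.09 times in wild type.

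**Figure D2:**
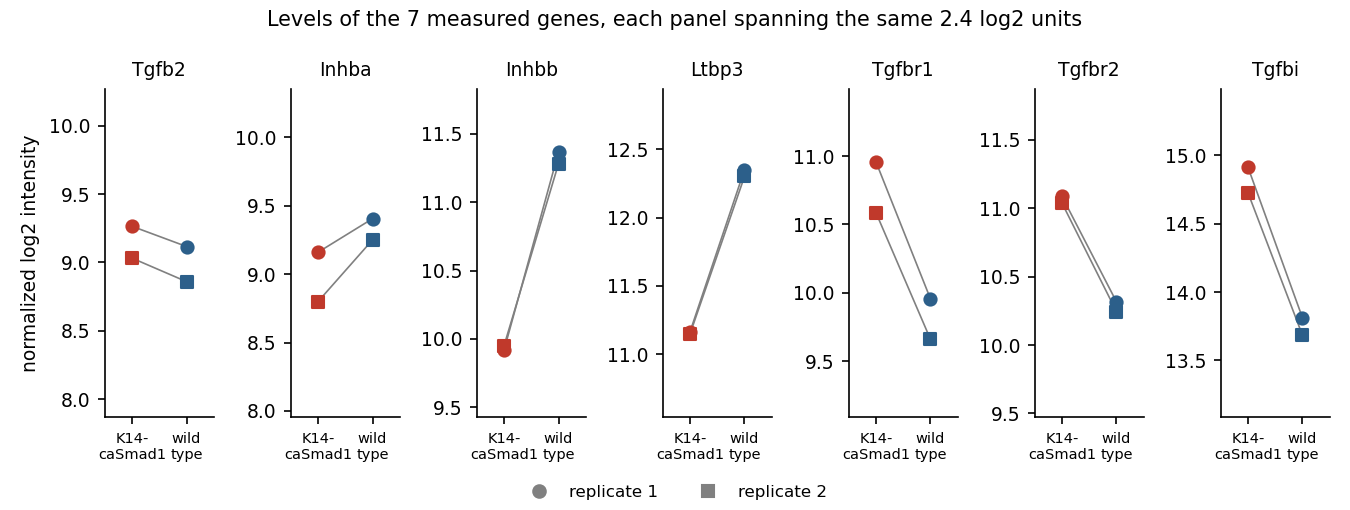
Normalized log2 intensity (vertical axis, each panel spanning 2.4 log2 units) of the 7 measured genes in K14-caSmad1 (left, red) and wild type (right, blue) on replicate 1 (circles) and replicate 2 (squares), with lines joining the channels of one array. The lines of Inhbb, Ltbp3 and Inhba climb to the right and those of Tgfbr1, Tgfbr2, Tgfbi and Tgfb2 descend, on both arrays.

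The signalling receptor genes were both higher. Tgfbr1, the type I receptor kinase, had normalized log2 intensities of 10.96 and 10.59 in K14-caSmad1 keratinocytes, against 9.96 and 9.66 in wild-type keratinocytes. The genotypes did not overlap, and the log2 ratio was 1.00 on replicate 1 and 0.93 on replicate 2 (limma adjusted p = 8.33e-05), with 5.05% of all genes tested higher. Tgfbr2, the type II receptor kinase, had 11.09 and 11.04 in K14-caSmad1 keratinocytes, against 10.32 and 10.24 in wild-type keratinocytes. There too the genotypes did not overlap, with a log2 ratio of 0.77 and 0.79 (limma adjusted p = 8.05e-05) and 8.49% of genes higher. Neither reached 2-fold on both arrays as processed here. Both did with the processed signals (1.32 for Tgfbr1 and 1.06 for Tgfbr2), from the deposited values (1.34 and 1.09) and with median centring (1.27 and 1.09). The median over all genes tested was -0.0038, 0.02 and 0.22 in these settings, against -0.03 as reported.

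These values came from probes near the downstream ends of the transcripts, at chr4:47427421-47427480 on the plus strand for Tgfbr1, starting at base 5290, and at chr9:115997155-115997214 on the minus strand for Tgfbr2, starting at base 4312. The upstream Tgfbr1 probe, starting at base 1366, was well above background in neither channel (log2 ratio 0.03 and -0.07). The same held for the Tgfbr2 probe to transcript variant 2, starting at base 620 (-0.13 and -0.28), and for the remaining Tgfbr2 probe, made to a cDNA clone, at chr9:116039845-116039904 on the minus strand (-0.14 and 0.10). Tgfbr3, the accessory receptor betaglycan, had a single probe at chr5:107537905-107537964 on the minus strand. Its raw signal was 0.991 and 1.02 times the negative controls in K14-caSmad1, against 0.971 and 0.984 times in wild type, so its level was not measured.

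Tgfbi, named for its induction by TGF-beta, encodes a matrix protein that binds integrins. Its normalized log2 intensities were 14.91 and 14.73 in K14-caSmad1 keratinocytes, against 13.81 and 13.68 in wild-type keratinocytes. The genotypes did not overlap, and the log2 ratio was 1.10 on replicate 1 and 1.04 on replicate 2 (limma adjusted p = 6.1e-05) at a probe on chr13:56740460-56740519, plus strand. Of all genes tested, 3.55% had a higher ratio. The raw signal was 46.9 and 47.5 times the mean of the negative controls in K14-caSmad1, against 23.5 and 23.9 times in wild type, far from background in both.

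**Figure D3:**
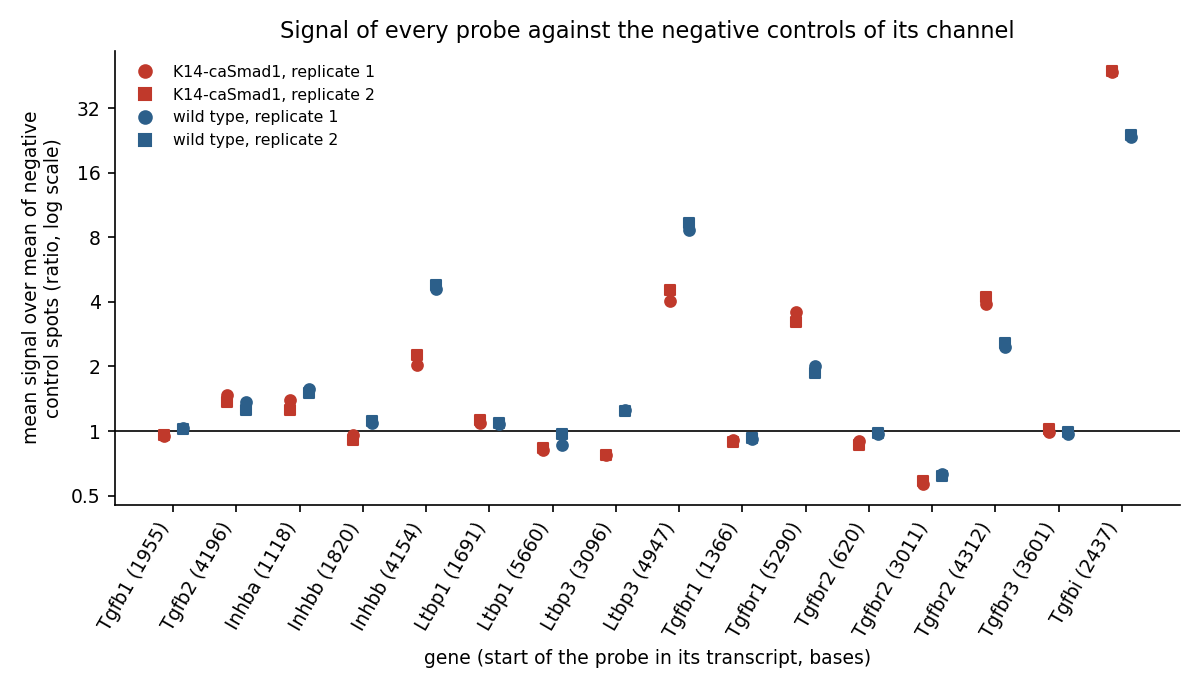
Mean raw signal of each of the 16 probes divided by the mean of the negative control spots of the same channel (log scale) in K14-caSmad1 (red) and wild type (blue) on replicate 1 (circles) and replicate 2 (squares). Tgfbi stands at 23.5 and above, and the upstream probes of Inhbb, Tgfbr1 and Tgfbr2 lie close to 1 or below in both channels.

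The software's own ratios, computed after its background subtraction and dye normalization, were farther from 0 for all 7 measured members, and they carry an error for each spot. For Inhbb they were -1.66 ± 0.26 and -1.58 ± 0.25 on replicates 1 and 2 (log2 scale, the software's error), and for Ltbp3 -1.22 ± 0.23 and -1.18 ± 0.23. They were 1.34 ± 0.25 on each array for Tgfbr1, 1.12 ± 0.23 and 1.05 ± 0.23 for Tgfbr2, and 1.13 ± 0.23 and 1.06 ± 0.23 for Tgfbi. For these 5 genes the ratio was thus over 4 times its error. The dim members stood closer to their errors, with 0.33 ± 0.31 and 0.53 ± 0.34 for Tgfb2 and -0.43 ± 0.29 and -0.94 ± 0.32 for Inhba.

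On the array at large, too, downstream probes were measured more often than upstream ones. Of 3313 RefSeq transcripts with probes at least 1000 bases apart, the most downstream probe passed the detection filter in 60.4% and the most upstream one in 28.0%. Only the downstream probe passed in 1351 transcripts, and only the upstream one in 276. The part of probe position in the dim readings of the upstream Inhbb, Tgfbr1 and Tgfbr2 probes was not tested. The single probe of Tgfb1 starts at base 1955 and that of Tgfbr3 at base 3601.

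The rest of the pathway gave few changes of 2-fold on both arrays among ligands, receptors and activators. Of 23 other ligands, receptors and extracellular modulators of the TGF-beta and activin branch, 7 were measured, 2 higher and 5 lower by limma and 0 of them 2-fold, against 13.9% of all genes (median log2 ratio -0.29, against -0.03 over all genes tested). All 7 were above background on both arrays in wild type but only 3 in K14-caSmad1, so the rest passed the filter through wild type alone. With both channels required, 3 remained, 2 above and 1 below 0 (median 0.12, against 0.009 over all genes). Of the 7, those farthest from 0 were Tgfb3 (-0.72, its K14-caSmad1 signal above background on 1 array), another TGF-beta ligand gene, and Tgfbrap1 and Fstl3, which were at least 1.25 and 1.18-fold lower. Tgfbrap1 encodes a receptor-associated protein and Fstl3 an activin-binding protein. Of 25 genes of latent TGF-beta storage and activation, 16 were measured, 10 higher and 4 lower by limma and 0 of them 2-fold (median 0.19). Over all genes tested, limma called 40.8% higher and 46.3% lower. Thbs1 and Plau passed the filter through K14-caSmad1 alone, and Dcn through wild type alone. Requiring both channels left 13 genes of this list, 10 above and 3 below 0 (median 0.18). Plat, a plasminogen activator, had a log2 ratio of -0.91, Itgav, the alpha V integrin subunit that binds latent TGF-beta, 0.87, and Thbs1, thrombospondin 1, was at least 1.58-fold higher.

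Among 21 genes of the Smad branch 18 were measured, 9 higher and 8 lower by limma, with 2 genes 2-fold lower and 0 higher (median 0.12). That is 11.1% of those measured, near the 13.9% of all genes tested. Foxh1, a Smad-binding transcription factor, was at least 2.38-fold lower. It passed the filter through wild type alone, yet it counts in the 11.1%. Ep300, among the higher genes, passed through K14-caSmad1 alone. Requiring both channels left 14 genes of the Smad branch, 8 above and 6 below 0 (median 0.12). Ppm1a, a phosphatase of Smad2 and Smad3, had a log2 ratio of -1.28, but its other probes read -0.23 and 0.14. The Smad genes that follow were added for their place in the pathway after their values were seen. Smad2 had a log2 ratio of 0.70, Smad7, the inhibitory Smad, -0.97, above background on 1 K14-caSmad1 array, and Smad4, the common Smad, 0.06 (limma adjusted p = 0.0709) with another probe at 1.40. Smad3 was not well above background. Of 17 kinases and partners of the branch that does not use Smads, 16 were measured, 5 higher and 9 lower by limma (median -0.22, against -0.03 over all genes tested). Requiring both channels left 14 of these, 6 above and 8 below 0 (median -0.23, against 0.009 over all genes). With median centring the median was 0.08, against 0.22 over all genes. With the mean of probes in place of the brightest probe it was -0.014, against -0.034 over all genes. Whether the list lay below all genes thus depended on how probes were combined. Rock1, a kinase that acts on the actin cytoskeleton, was the only one 2-fold on both arrays (log2 ratio 1.51), 6.25% of those measured against 13.9% of all genes tested.

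Genes known to be induced by TGF-beta in epithelial cells or fibroblasts went both ways. Of 40 listed, 34 were measured, 16 higher and 14 lower by limma (median 0.03). Of these, 12 were 2-fold on both arrays, 35.3% of those measured against 13.9% of all genes tested. The 5 higher ones were Postn (log2 ratio 2.01), the protease inhibitor Timp3 (1.64), vimentin (Vim, 1.39), the zinc finger gene Klf10 (1.32) and the matrix gene Sparc (1.21, with another probe at 0.82). Among the 7 lower ones, Acta2 and the collagen genes Col3a1, Col1a1 and Col1a2 were not above background in K14-caSmad1 and were at least 3.20, 3.13, 2.39 and 2.09-fold lower. The others were Tagln (-1.78), Gadd45b (-1.30, with another probe at -1.0) and Tsc22d1 (-1.07). Acta2 and the collagen genes passed the detection filter through wild type alone, yet they count in the 35.3%. With both channels required, 10 of 67 genes of all pathway lists together were 2-fold on both arrays, against 1314 of all 9929 genes. That count pools the other lists with the induced genes, so it cannot be set beside the 35.3%. In that setting 27 of the induced genes remained, 16 above and 11 below 0 (median 0.18). Among them Postn, Timp3, Vim, Klf10, Sparc, Tagln, Gadd45b and Tsc22d1 were still 2-fold on both arrays. Fn1 and Tnc, on the same list, did not pass the detection filter.

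**Figure D4:**
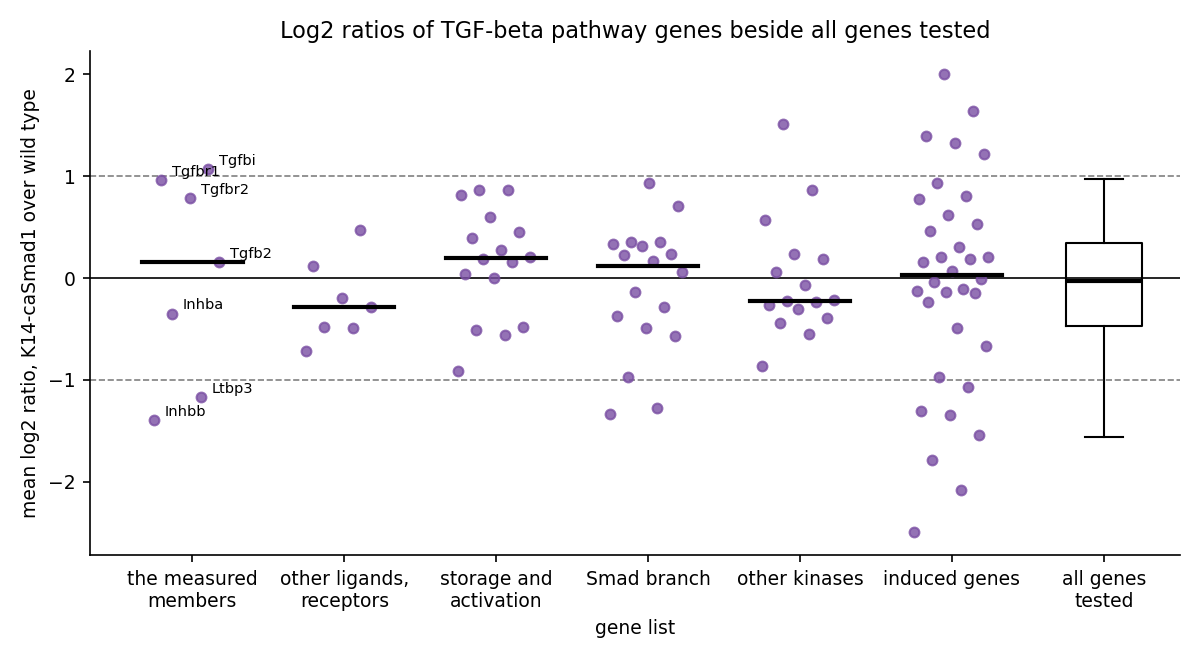
Mean log2 ratio of K14-caSmad1 over wild type for each measured gene of 6 lists (points, with a bar at the median of the list), beside all 11748 genes tested (box from -0.47 to 0.35 at the quartiles, whiskers at the 5th and 95th percentiles). The induced genes spread from -2.50 to 2.01, and the 7 measured members from -1.39 to 1.07.

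Markers of other cell types moved as well, and their part in the values above was not tested. By limma 40.8% of all genes tested were called higher and 46.3% lower, so counts of higher or lower markers alone say little. Genes of the hair shaft, matrix and inner root sheath (the last with Krt71, Krt25 and Tchh) differed most. Of these, 14 of 14 measured genes were 2-fold lower (median -4.17), against 9.81% of all genes tested. Their summed level was 109467 and 106942 intensity units in K14-caSmad1 on replicates 1 and 2, against 1970928 and 2122560 in wild type. Of 13 fibroblast and dermal papilla markers 3 were measured, with Dcn and Fap not above background in K14-caSmad1 (at least 1.36 and 1.40-fold lower) and Thy1 at 0.27 (another probe -0.40), and Pdgfra, Pdgfrb, Lum and Twist2 in neither channel. Their summed level was 16072 and 12882 in K14-caSmad1, against 13405 and 11584 in wild type, nearly all from Thy1. All 4 measured of 10 endothelial markers were lower (median -0.92, summed level 1763 and 1589 in K14-caSmad1, against 3202 and 2940 in wild type), and Pecam1 and Cdh5 were above background in neither channel. Of the 4, only 1 was above background on both arrays in K14-caSmad1 (log2 ratio -1.09), and the rest passed the filter through wild type alone. All 5 measured of 8 melanocyte markers were lower (median -1.22, summed level 3216 and 2765 in K14-caSmad1, against 6668 and 6299 in wild type). Here 2 of the 5 were above background on both arrays in K14-caSmad1 (median -1.16), and the rest likewise passed through wild type alone. For genes that passed in this way, a lower ratio was largely set by the filter. Of 11 myeloid and Langerhans cell markers 9 were measured, 5 higher and 2 lower (median 0.11), with a summed level of 45503 and 47445 in K14-caSmad1, against 37496 and 41319 in wild type. The 2 lower ones, Cd68 and Cd14, passed the filter through wild type alone. Requiring both channels left 7 of these markers, 6 above and 1 below 0 (median 0.14, against 0.009 over all genes). Of 8 T cell markers, Thy1 again among them, 6 were measured, 5 of them higher (median 0.37), with a summed level of 38448 and 34707 in K14-caSmad1, against 27511 and 25240 in wild type. The keratinocyte markers summed to 760917 and 773577 in K14-caSmad1, against 487077 and 453750 in wild type (median 0.83, 9 of 12 measured higher and 2 lower). Trp63, counted as higher at 1.69, had another probe at -0.78. Krt10, at 0.02, had another at 2.29, and Itgb4, at 0.59, another at 0.86.

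Promoter windows, from 250 bases before to 50 after the start of the gene, are shown for the 3 members that differed 2-fold on both arrays, since active Smad1 binds DNA. They come from RefSeq (GRCm38.p6), which held 11 windows for 9 of the 10 genes. Both strands were searched for GGCGCC, a GC-rich element bound by BMP-activated Smads, for GTCT, the short Smad-binding motif, and for its palindrome GTCTAGAC, which overlaps GTCT and AGAC. Matches to GGCGCC and to GTCT or its reverse complement AGAC are in capitals.
Inhbb, chr1:119422199-119422498, minus strand: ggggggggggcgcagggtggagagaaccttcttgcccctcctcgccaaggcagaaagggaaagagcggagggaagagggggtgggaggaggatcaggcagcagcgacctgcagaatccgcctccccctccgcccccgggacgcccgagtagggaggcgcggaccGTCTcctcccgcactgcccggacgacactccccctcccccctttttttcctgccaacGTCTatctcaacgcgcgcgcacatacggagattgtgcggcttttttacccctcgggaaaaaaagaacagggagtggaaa
Ltbp3, chr19:5740650-5740949, plus strand: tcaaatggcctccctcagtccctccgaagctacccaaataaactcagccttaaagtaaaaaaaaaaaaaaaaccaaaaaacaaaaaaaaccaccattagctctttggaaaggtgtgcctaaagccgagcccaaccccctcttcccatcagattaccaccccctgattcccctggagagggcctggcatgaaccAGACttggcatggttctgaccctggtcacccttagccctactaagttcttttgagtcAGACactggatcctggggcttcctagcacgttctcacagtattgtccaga
Tgfbi, chr13:56609336-56609635, plus strand: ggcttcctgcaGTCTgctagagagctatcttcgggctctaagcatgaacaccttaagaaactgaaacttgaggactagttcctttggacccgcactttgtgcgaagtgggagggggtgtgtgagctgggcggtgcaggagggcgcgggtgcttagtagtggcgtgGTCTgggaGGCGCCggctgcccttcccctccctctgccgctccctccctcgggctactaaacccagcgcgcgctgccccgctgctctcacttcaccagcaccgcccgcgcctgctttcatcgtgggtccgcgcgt
GGCGCC was present once in the Tgfbi window and in 1 of the 2 Tgfbr1 windows, and in none of the other member windows, against 11.9% of all 32851 windows. The Inhbb, Ltbp3 and Tgfbi windows held 2 matches to GTCT each, the median over all windows, of which 88% held at least 1. GTCTAGAC was in 0 of the 11 member windows and in 0.213% of all windows. These matches describe the letters of the windows and show no binding.

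**Figure D5:**
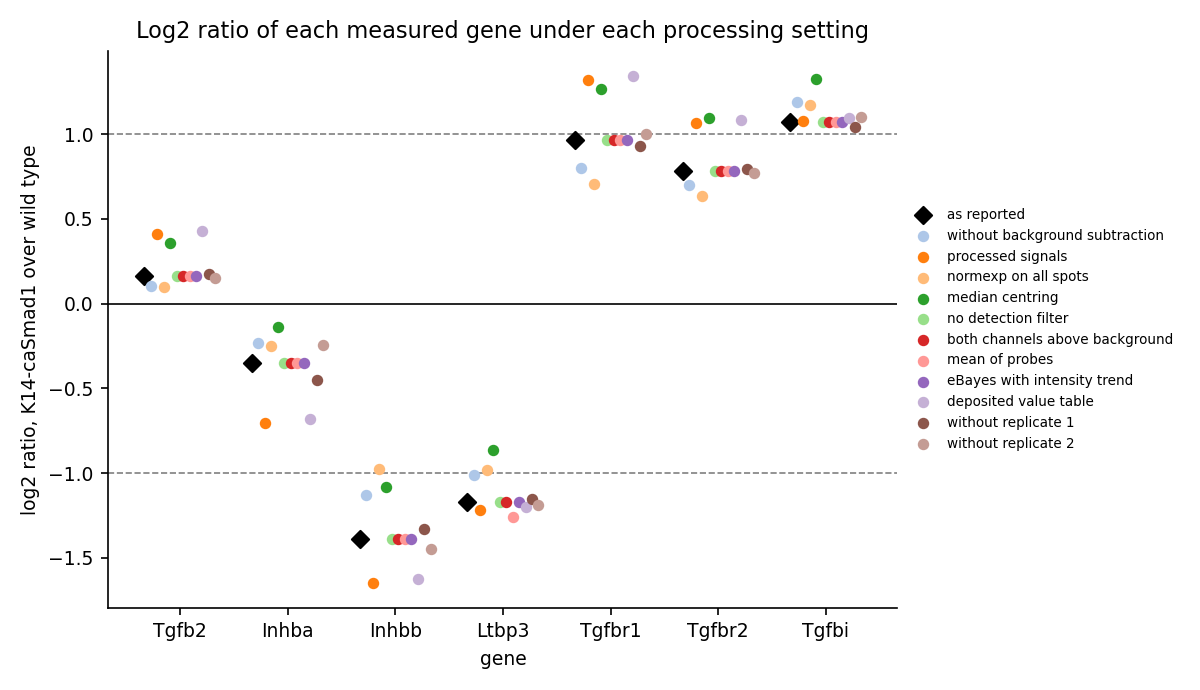
Log2 ratio of K14-caSmad1 over wild type for the 7 measured genes as reported (black diamonds) and under 11 other processing settings (circles). Each gene keeps its direction in every setting, with Inhba ranging from -0.71 to -0.14 and Tgfbi from 1.04 to 1.32.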

How the data were processed

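The authors scanned the arrays and made the files with Agilent Feature Extraction 10.5.1.1, and the files place probes on mm9 (per the file headers). Mean and background intensity were deposited as read from the spots, and processed intensity was background-subtracted, detrended and dye-normalized by that software, per the file headers. The deposited log10 ratio of Cy5 over Cy3 is that of the processed signals, and its error and p-value were computed by the software's error model, per the file headers. The deposited value table lies within 0.00397 of the log10 ratio of the processed signals (medians 0.023 and -0.01, with no further centring), and differs from the software's own log10 ratio by up to 0.059.

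With limma 3.58.1, background was corrected by normexp (offset 50), leaving out 36 spots of replicate 1 on a non-uniform local background, and log2 ratios were normalized by loess (span 0.3). Outlier spots were left out and repeated spots averaged. Probes well above background on both arrays in either channel were tested against 0 (lmFit, eBayes, Benjamini-Hochberg, 0.05), with the brightest probe per gene. Levels were set between arrays by Aquantile. The fit was checked on simulated data. Members and lists were chosen with earlier results of these data known. All members were named. Of each pathway list, genes 2-fold on both arrays were named, or else the 3 farthest from 0. Names followed RefSeq (24844 probes by accession, 6045 by symbol, 1810 by synonym, 8475 kept the file's name). No likeness of pattern was sought, since there was 1 comparison.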

Additional observations from a re-analysis of the deposited data

How the results depend on the processing

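The direction of all 7 measured members held in all 11 alternatives each. The limma call was lost for Tgfb2 with all spots in the normexp fit, and for Inhba in that fit, with median centring and with the deposited value table (adjusted p = 0.0505). Counts at 2-fold on both arrays moved with the processing. The processed signals and deposited values change both the background step and the dye normalization. Without background subtraction the counts were 2 members, 12 listed pathway genes and 1190 of all genes. With processed signals they were 5 members, 26 listed pathway genes and 3014 of all genes, from the deposited values 5 members, 27 pathway genes and 3140 of all genes, and under normexp fitted to every spot 1, 6 and 776, against 3, 15 and 1633 as reported. Genes past limma's threshold numbered 3268 with all spots in the normexp fit and 17755 with no detection filter, against 10236. Median centring turned the split of 2-fold genes to 1110 higher and 811 lower, against 480 and 1153. The cause was not tested. Leaving out either array gave 3 to 4 members, 15 to 16 pathway genes and 1747 to 1765 of all genes past 2-fold, values with no test. Both genotypes share each array, so the test of the log2 ratio against 0 was already a paired one. Signal over background limits Tgfb1, Tgfbr3 and Ltbp1.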

Other observations

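Several pathway genes outside the 10 members were read by more than 1 probe above background, and some of these pairs differed widely. For Ppm1a the brightest probe gave a log2 ratio of -1.28 and the others -0.23 and 0.14. For Smad4 the brightest probe gave a log2 ratio of 0.06 and the other 1.40. For Limk2, a kinase of the actin cytoskeleton, the values were -0.44 and -1.02, and for Ski, a repressor of Smad signalling, -0.29 and -0.72. The sign also differed between probes for Pak2 (-0.26 and 0.35), Rhoa (-0.22 and 0.44) and Rnf111 (-0.14 and 0.29). Lefty1, an extracellular antagonist of the activin and Nodal branch, had a log2 ratio of 0.48 and was well above background in both channels on both arrays.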
